A study of Mus musculus with 6 samples.

Results

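Of the 27 genes described here, 20 encode enzymes of cholesterol synthesis from acetyl-CoA or of its isoprenoid branch, though not every step is covered. The other 7 encode proteins that control that route through the SREBP system or carry its product. The 27 genes were taken from a list of gene symbols, and all were found among the 23154 Ensembl gene identifiers of the deposited table. The RNA came from RAW264.7, an established line of mouse cells with macrophage properties. The 3 NUR77 libraries came from a stable line with the pINDUCER20b-HA-NUR77 construct, from which doxycycline induces the HA-tagged nuclear receptor NUR77. The 3 GFP libraries came from a stable line with pINDUCER20b-GFP. Both lines received doxycycline at 1 µg/mL for 18 hours, begun 24 hours after seeding, with a separate dish for each replicate. No inflammatory stimulus is named, and no culture without doxycycline was analysed here. Each group is 1 stable line, so a difference between the lines and the effect of the transgene cannot be told apart. The p-values below measure the spread between dishes.

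Cholesterol is made in the endoplasmic reticulum. Acetyl-CoA units are joined and reduced to mevalonate, mevalonate is turned into isoprenoids and then squalene, and squalene is cyclised to lanosterol and trimmed to cholesterol. Most genes of the route are activated by SREBP-2, the product of Srebf2. The precursor is escorted by SCAP from the endoplasmic reticulum to the Golgi, where the proteases encoded by Mbtps1 and Mbtps2 release its active part. When sterols are plentiful, INSIG proteins hold SCAP back. Insig1 is itself a target of SREBP, so its transcript is widely used as a readout of the system. In macrophages the pathway is balanced against uptake, esterification and efflux of cholesterol.

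Levels are given as normalized reads, which are reads per 10000000 reads counted on genes. Depth was between 11199468 and 15929487 such reads per library. Nr4a1, the gene of NUR77, had 288, 314 and 297 normalized reads in the NUR77 libraries, against 170.0, 148 and 161 in the GFP libraries (log2 fold change 0.90, limma adjusted p = 5.5e-08). The counts do not tell transgene reads from those of the endogenous gene. Of 10 macrophage markers 10 were detected in both lines, with a summed level of 27600 to 28800 normalized reads in NUR77 libraries and 72600 to 73900 in GFP libraries. The markers did not move together: Lyz2 had 2140 to 3130 normalized reads in NUR77 libraries and 26000 to 27600 in GFP libraries, Mpeg1 910 to 1150 and 16400 to 16900, and Cd68 4860 to 5290 and 13700 to 14200. Itgam had 9200 to 9980 in NUR77 libraries and 4180 to 4290 in GFP libraries, and the ranges of Ptprc, the leukocyte marker CD45, overlapped (4570 to 4780 and 4500 to 4670). Their part in the results below was not tested. In bulk RNA, fewer cells of a kind and less RNA per cell cannot be told apart. Summed epithelial, T cell, B cell and erythroid markers reached at most 3.14 normalized reads in any library. Skeletal muscle markers summed to 380, 128 and 132 normalized reads in the NUR77 libraries and 401 to 452 in the GFP libraries, of which Tnni2 alone made up 336 to 385. Without Tnni2 the sums were 284, 69.7 and 60.5 in the NUR77 libraries and 58.8 to 66.9 in the GFP libraries. Of 17 such markers, 13 were highest in NUR77 replicate 1, as were 3 of 5 fibroblast markers, with summed fibroblast levels of 92.9, 32.0 and 22.3 normalized reads in the NUR77 libraries and 17.6 to 22.3 in the GFP libraries.

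Promoter windows of 5 members are shown because they belong to the 2 enzyme genes with the lowest log2 fold changes, to Insig1, which fell most of all members, and to the 2 genes for the same sterol reduction step, both of which were higher in NUR77. Each window holds 250 bases before and 50 bases from the transcription start in RefSeq on GRCm38.p6, read 5′ to 3′ on the strand of the gene. Capitals mark a sterol regulatory element, searched as TCACNCCAC, CCAAT boxes, searched as CCAAT, and E-boxes, searched as CACGTG, each on both strands.
Insig1, chr5:28071162-28071461, plus strand: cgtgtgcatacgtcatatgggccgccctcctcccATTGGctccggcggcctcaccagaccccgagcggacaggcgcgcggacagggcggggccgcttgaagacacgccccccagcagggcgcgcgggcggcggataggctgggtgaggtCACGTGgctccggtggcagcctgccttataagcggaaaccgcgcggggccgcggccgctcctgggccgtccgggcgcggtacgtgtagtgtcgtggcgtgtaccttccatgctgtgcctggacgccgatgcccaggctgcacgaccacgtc
Hmgcs1, chr13:119690101-119690400, plus strand: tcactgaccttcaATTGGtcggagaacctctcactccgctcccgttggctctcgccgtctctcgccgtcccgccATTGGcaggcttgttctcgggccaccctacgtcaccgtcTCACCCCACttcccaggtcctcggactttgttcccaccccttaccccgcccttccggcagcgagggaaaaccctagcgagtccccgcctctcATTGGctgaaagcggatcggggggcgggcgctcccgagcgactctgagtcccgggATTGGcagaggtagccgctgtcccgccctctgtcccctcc
Sc5d, chr9:42264251-42264550, minus strand: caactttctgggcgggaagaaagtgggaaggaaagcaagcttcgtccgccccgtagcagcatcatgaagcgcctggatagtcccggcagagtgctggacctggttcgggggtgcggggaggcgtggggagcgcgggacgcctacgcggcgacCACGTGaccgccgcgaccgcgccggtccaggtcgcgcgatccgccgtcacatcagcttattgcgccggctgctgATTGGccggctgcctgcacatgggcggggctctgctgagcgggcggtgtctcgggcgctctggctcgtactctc
Tm7sf2, chr19:6067801-6068100, minus strand: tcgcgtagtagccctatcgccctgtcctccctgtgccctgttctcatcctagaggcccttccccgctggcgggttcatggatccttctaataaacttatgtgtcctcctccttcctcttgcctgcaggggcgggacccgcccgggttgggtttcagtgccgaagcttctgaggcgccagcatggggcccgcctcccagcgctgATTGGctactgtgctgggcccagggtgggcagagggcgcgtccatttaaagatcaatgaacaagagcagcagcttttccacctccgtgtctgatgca
Lbr, chr1:181842352-181842651, minus strand: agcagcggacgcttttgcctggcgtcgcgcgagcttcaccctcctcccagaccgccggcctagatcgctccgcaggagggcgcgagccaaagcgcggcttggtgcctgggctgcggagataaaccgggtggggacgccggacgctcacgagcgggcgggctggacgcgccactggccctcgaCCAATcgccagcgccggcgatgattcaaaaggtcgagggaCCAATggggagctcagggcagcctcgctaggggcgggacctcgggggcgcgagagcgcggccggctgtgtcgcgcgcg
RefSeq windows were found for 23 of the 27 members, but not for Fdps, Fdft1, Sqle and Stard4. The sterol element was in 1 of these 23 genes, Hmgcs1, where it begins 137 bases before the start; 1.44% of all 27025 genes with a window hold it. CCAAT, the element of the SREBP partner NF-Y, was in 19 of the 23, against 41.1% of all genes with a window and 43.7% of those tested here. GGGCGG, the GC box of Sp1, was in 20 of the 23, against 38.2% and 69.8%. The E-box was searched after the windows had been read and was in 5 of the 23, among them Insig1 and Sc5d, where it begins 98 bases before the start; 8.09% of all genes and 12.2% of those tested hold it. AAAGGTCA, the element that NR4A receptors bind as monomers, was in 0 of the 23 and in 1.7% of all genes. These counts describe letters in short windows and were not tested. An element with other letters or outside the window would be missed, so a gene without a match may still hold one.

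Of the 27 members, 6 rose and 13 fell in the NUR77 line, and 8 did not pass the test. A gene passed with an adjusted p under 0.05 in limma over 11201 tested genes, those averaging at least 10 normalized reads over the 6 libraries; all 27 members were among them. Across all tested genes 38.4% rose, 28.3% fell and 66.7% were called in either direction, so the share of members called, 19 of 27, was close to the background. By direction, 22.2% of the members rose and 48.1% fell; these shares were not tested against the background. The median log2 fold change was -0.08 over the members and 0.06 over all tested genes. Most changes were small: 16 of the 19 called members changed by less than 1.5-fold, and 1 member, Insig1, changed by 2-fold or more, against 13.9% of all tested genes. The 3 NUR77 values did not overlap the 3 GFP values for 19 members, where 70.6% of all tested genes showed no overlap. Under trimmed mean of M-values scaling the members split into 4 higher and 15 lower, and all tested genes into 3612 higher and 3835 lower. Under upper-quartile scaling the members split into 5 and 14, and all tested genes into 3720 and 3710. Under median-of-ratios scaling the splits were 5 and 13, and 3771 and 3656. The counts thus depend on the scaling in both. Falls outnumbered rises among the members under each scaling. Among all tested genes falls outnumbered rises under trimmed mean of M-values scaling, and rises outnumbered falls under the others. Without NUR77 replicate 1, 6 members were called higher and 11 lower, against 4259 and 3009 of the 11201 tested genes.

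**Figure D1:**
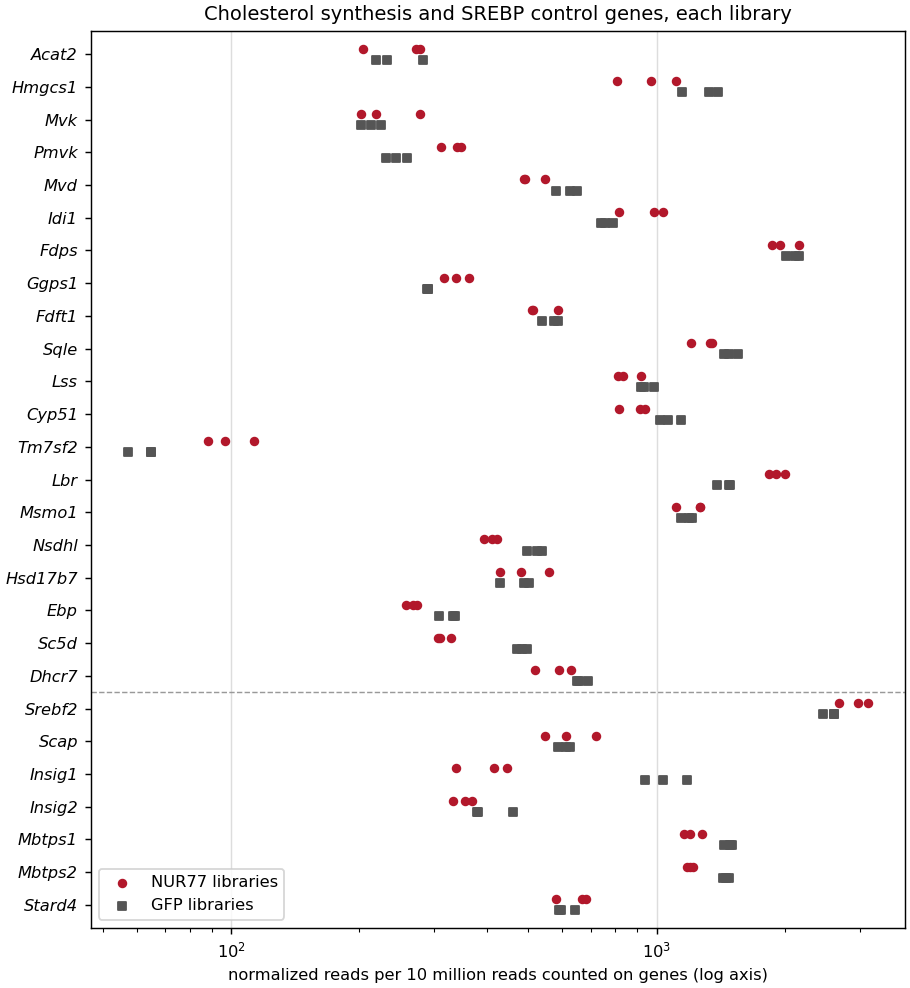
Normalized reads of the 27 genes in each of the 3 NUR77 libraries (red circles) and the 3 GFP libraries (grey squares), on a log axis, with enzymes above the dashed line in pathway order and control genes below it. Insig1 shows the widest gap, with NUR77 libraries at 338 to 446 and GFP libraries at 938 to 1182.

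The sensor arm held the largest change. Insig1, whose product retains SCAP and its SREBP cargo in the endoplasmic reticulum, had 446, 414 and 338 normalized reads in the NUR77 libraries, against 1182, 938 and 1037 in the GFP libraries. The NUR77 libraries were all below the GFP libraries, with no overlap. The log2 fold change was -1.40 (SE 0.11, 95% interval -1.63 to -1.17, adjusted p = 2.8e-07), or 0.379 times the GFP level, which ranked 1011 among all tested genes by absolute size. With single libraries left out it lay between -1.48 and -1.28 and passed each time. Insig1 (ENSMUSG00000045294) lies on chromosome 5 from 28071363 to 28078662 on the plus strand of mm10.

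Insig2, the paralog of Insig1, had 355, 333 and 368 normalized reads in NUR77 libraries and 459.9, 378 and 380.4 in GFP libraries. GFP replicate 1 stood above the other 2 GFP libraries, which lay just above the highest NUR77 library. The log2 fold change of -0.20 (SE 0.08) passed at an adjusted p of 0.038, but it no longer passed once GFP replicate 1 (-0.11, adjusted p = 0.25), NUR77 replicate 2 (-0.16, 0.14) or NUR77 replicate 1 (-0.21, 0.059) was left out, or without the mean-variance trend (adjusted p = 0.097). Per kilobase of annotated exon, Insig1 stood at 1.41, 1.40 and 1.03 times the level of Insig2 in NUR77 libraries and at 2.89, 2.79 and 3.06 times in GFP libraries. The means of this ratio were 1.28 ± 0.214 and 2.91 ± 0.139 (SD, n = 3 per line; exact two-sided permutation p = 0.1, the smallest that 3 against 3 libraries allow).

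**Figure D2:**
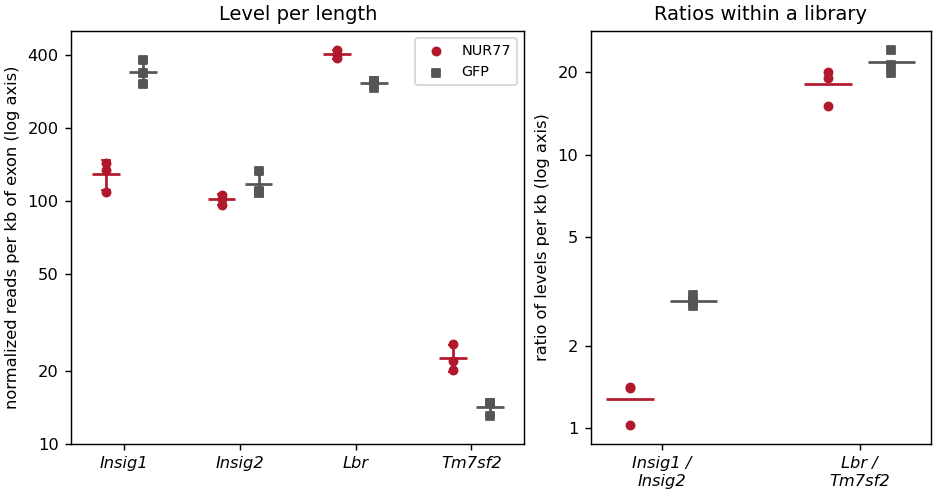
Left, level per kilobase of annotated exon (log axis) of Insig1, Insig2, Lbr and Tm7sf2 in 3 NUR77 (red circles) and 3 GFP libraries (grey squares); lines are means and bars SDs. Right, ratios of Insig1 to Insig2 and of Lbr to Tm7sf2 in each library, with lines at the means; the Insig1 to Insig2 ratio was 1.03 to 1.41 in NUR77 libraries and 2.79 to 3.06 in GFP libraries.

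Srebf2, the transcription factor gene itself, had the highest level per kilobase of exon among the control genes, 408 normalized reads per kilobase in NUR77 libraries and 356 in GFP libraries. Its libraries held 2687, 3134 and 2977 normalized reads in NUR77 libraries and 2461, 2606 and 2611 in GFP libraries. All NUR77 libraries exceeded all GFP libraries. It rose by 0.19 on the log2 scale (SE 0.06, adjusted p = 0.007) but did not pass when NUR77 replicate 2 was left out (0.14, adjusted p = 0.055) or under trimmed mean of M-values scaling (0.12, adjusted p = 0.076). Scap, the escort, had 546, 722 and 613 normalized reads in NUR77 libraries and 611, 625 and 586 in GFP libraries. The NUR77 libraries spread on both sides of the GFP libraries, and Scap did not pass (0.04, 95% interval -0.14 to 0.21, adjusted p = 0.71).

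Both SREBP proteases fell. Mbtps1, which encodes the site-1 protease, had 1158, 1276 and 1201 normalized reads in NUR77 libraries and 1438, 1508 and 1488 in GFP libraries (log2 fold change -0.29, SE 0.05, adjusted p = 1.6e-04). Mbtps2, which encodes the site-2 protease, had 1200.1, 1218 and 1181 in NUR77 libraries and 1477, 1459 and 1430.1 in GFP libraries (-0.28, SE 0.05, adjusted p = 1.0e-04). In both genes every NUR77 library was below every GFP library, and both calls held in all 16 alternatives. Stard4, a carrier of free cholesterol between membranes, had 669.7, 683 and 582 normalized reads in NUR77 libraries and 595, 591 and 642 in GFP libraries. Its groups overlapped, and it did not pass (0.08, 95% interval -0.07 to 0.22, adjusted p = 0.32). The 7 control genes together thus held 1 rise, 4 falls and 2 genes that did not pass, with a median log2 fold change of -0.20. Among all tested genes 38.4% rose and 28.3% fell, and the counts of the control genes were not tested against these shares.

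The 9 enzymes listed up to squalene moved in both directions, with 3 rises, 2 falls and 4 that did not pass. Among the rises, Ggps1 lies on a side branch to geranylgeranyl units and not on the way to squalene. For comparison, 38.4% of all tested genes rose and 28.3% fell. Acat2, a cytosolic thiolase that joins acetyl-CoA units, had 278, 272 and 204 normalized reads in NUR77 libraries and 233, 219 and 283 in GFP libraries, which overlapped throughout (log2 fold change 0.03, 95% interval -0.24 to 0.30). Its near-identical neighbour Acat3 had at most 2.68 normalized reads, and reads shared by the pair may be assigned to neither. Hmgcs1, the HMG-CoA synthase of the cytosol, had 1109.9, 969.7 and 808 normalized reads in NUR77 libraries and 1393, 1147 and 1327 in GFP libraries. The highest NUR77 library came close to the lowest GFP library without reaching it. Hmgcs1 fell by 0.43 on the log2 scale (SE 0.11, adjusted p = 0.0077), and the log2 fold change lay between -0.54 and -0.31 over the 16 alternatives, passing in each.

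The 2 kinases and the decarboxylase that follow did not move together. Mvk, mevalonate kinase, averaged 233 ± 39.6 normalized reads in NUR77 libraries and 213 ± 11.7 in GFP libraries (SD, n = 3 per line) and did not pass (0.11, adjusted p = 0.36). Pmvk, phosphomevalonate kinase, had 346, 339 and 311 normalized reads in NUR77 libraries and 245, 232 and 259 in GFP libraries, with no overlap. It rose by 0.44 on the log2 scale (SE 0.08, adjusted p = 9.2e-05), or 1.35 times the GFP level. Mvd, the diphosphomevalonate decarboxylase, fell to 508 ± 32.7 normalized reads in NUR77 libraries, against 618 ± 35.8 in GFP libraries (-0.28, adjusted p = 0.0013).

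Idi1, the isomerase that interconverts the 2 five-carbon isoprenoid units, had 1034, 985 and 815 normalized reads in NUR77 libraries and 755, 740.1 and 792 in GFP libraries. NUR77 replicate 3 lay only just above the highest GFP library, and the rise was 0.30 (SE 0.08, adjusted p = 0.0022). Fdps, farnesyl diphosphate synthase, had the highest level per kilobase of exon of all the enzymes, 475 normalized reads per kilobase in NUR77 libraries and 499 in GFP libraries. It did not pass (-0.07, adjusted p = 0.28), though it passed as lower under trimmed mean of M-values scaling (-0.15, adjusted p = 0.033) and upper-quartile scaling (-0.14, adjusted p = 0.045). Ggps1, which makes the geranylgeranyl units used for protein prenylation, rose to 339 ± 23.3 normalized reads in NUR77 libraries, against 290.0 ± 0.751 in GFP libraries (0.22, adjusted p = 0.013). It did not pass with NUR77 replicate 3 left out (0.17, adjusted p = 0.066) or under all 3 other scalings (0.15 to 0.16, adjusted p = 0.055 to 0.082).

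Fdft1, squalene synthase, averaged 535 ± 43.3 normalized reads in NUR77 libraries and 566 ± 24.1 in GFP libraries and did not pass (-0.08, adjusted p = 0.29); under trimmed mean of M-values scaling it did (-0.16, adjusted p = 0.048). Fdft1 is annotated in overlap with Ctsb on the opposite strand, which averaged 12900 normalized reads in NUR77 libraries and 64400 in GFP libraries. Ggps1 overlaps Arid4b and Cyp51 overlaps Akap9, also on opposite strands, and Tm7sf2 overlaps Vps51 on its own strand. The library kit marks strand, but whether reads were counted by strand is not stated in the labels or headers, so the values of Fdft1, Ggps1 and Cyp51 are uncertain to that extent. Tm7sf2 is uncertain whatever the strand setting, since reads from the shared stretch could come from either gene.

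**Figure D3:**
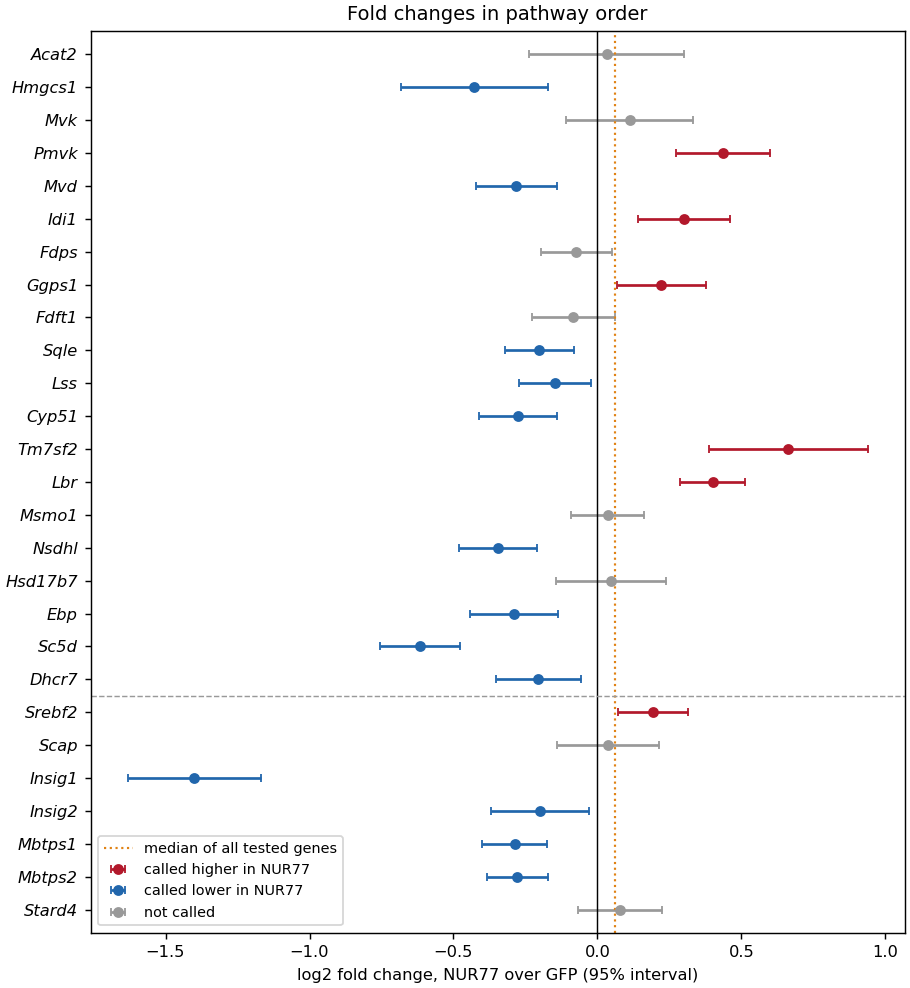
Log2 fold change, NUR77 over GFP, of each of the 27 genes with its 95% interval from the limma fit, in pathway order; red marks genes called higher, blue genes called lower, grey genes not called, and the dotted line the median of all tested genes, 0.06. Of the 11 enzymes from Sqle to Dhcr7, 7 are blue, 2 are red (Tm7sf2 and Lbr) and 2 are grey (Msmo1 and Hsd17b7). Among all tested genes 28.3% were called lower and 38.4% higher.

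The 11 enzymes from squalene onward held 7 falls, 2 rises and 2 genes that did not pass. Over all tested genes 28.3% fell, 38.4% rose and 66.7% were called in either direction. The counts before and after squalene were not tested against these shares or against each other. Sqle, squalene epoxidase, the first oxygen-dependent step, fell to 1296 ± 77.0 normalized reads in NUR77 libraries, against 1491 ± 56.9 in GFP libraries (log2 fold change -0.20, adjusted p = 0.0046). Lss, which closes the sterol ring system to give lanosterol, fell least, to 856 ± 54.7 in NUR77 libraries, against 947 ± 35.2 in GFP libraries (-0.15, adjusted p = 0.037). The Lss call was lost when NUR77 replicate 1 (adjusted p = 0.12), NUR77 replicate 3 (0.087), GFP replicate 2 (0.054) or GFP replicate 3 (0.17) was left out, without the filter on low values (0.051) and without the trend (0.088). Cyp51, the lanosterol 14-alpha-demethylase, fell to 889 ± 65.5 in NUR77 libraries, against 1075 ± 62.1 in GFP libraries (-0.28, adjusted p = 0.0011).

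The next step, reduction of the C14 double bond, can be done by the products of either Tm7sf2 or Lbr, and both genes rose. Tm7sf2 had 88.4, 96.8 and 113 normalized reads in NUR77 libraries and 64.8, 57.1 and 64.7 in GFP libraries. Per kilobase of exon it had the lowest level of the 20 enzymes, 22.6 normalized reads in NUR77 libraries and 14.1 in GFP libraries, and it had the largest rise among them, 0.66 on the log2 scale (SE 0.13, adjusted p = 2.6e-04). Lbr, whose product is also a lamin-binding protein of the inner nuclear membrane, had 1909, 2004 and 1841 in NUR77 libraries and 1386, 1492 and 1484 in GFP libraries (0.40, SE 0.05, adjusted p = 4.8e-06). Neither gene showed overlap between the lines. Per kilobase of exon, Lbr stood at 18.1 ± 2.62 times the level of Tm7sf2 in NUR77 libraries and at 21.7 ± 2.23 times in GFP libraries. The highest NUR77 library lay just above the lowest GFP library, at 19.8, and 3 against 3 libraries cannot reach the threshold in an exact two-sided permutation test (p = 0.2, smallest possible 0.1).

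Removal of the C4 methyl groups needs Msmo1, Nsdhl and Hsd17b7 in turn, and of these genes Nsdhl passed. Msmo1 had 1263, 1267 and 1111 normalized reads in NUR77 libraries and 1213, 1142 and 1193 in GFP libraries, with overlapping groups (0.04, 95% interval -0.09 to 0.16). Nsdhl had 421, 411 and 392 in NUR77 libraries and 495, 524 and 537 in GFP libraries, all NUR77 values being lower (-0.34, SE 0.06, adjusted p = 1.4e-04). Hsd17b7 averaged 489.8 ± 65.7 in NUR77 libraries and 473 ± 39.0 in GFP libraries (0.05, adjusted p = 0.67).

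The 3 enzymes that then shift, add and remove ring double bonds all fell. Ebp, the sterol isomerase, had 268, 274 and 257 normalized reads in NUR77 libraries and 336, 333 and 308 in GFP libraries (-0.29, SE 0.07, adjusted p = 0.0021). Sc5d, the C5 desaturase, had 309, 329 and 306 in NUR77 libraries and 484, 497 and 469 in GFP libraries. This was the largest fall of any enzyme among the members (-0.62, SE 0.07, adjusted p = 3.2e-07), or 0.652 times the GFP level, and its libraries were tightly grouped in each line. Sc5d lies on chromosome 9 from 42251595 to 42264256 on the minus strand of mm10. Dhcr7, the 7-dehydrocholesterol reductase, fell to 579 ± 56.8 in NUR77 libraries, against 666 ± 20.6 in GFP libraries (-0.21, adjusted p = 0.016). Dhcr7 did not pass with NUR77 replicate 3 left out (-0.13, adjusted p = 0.092), without GFP replicate 2 (-0.18, 0.057) or without the trend (0.063).

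Summed over the 20 enzymes, the libraries held 14675, 15125 and 13498 normalized reads in the NUR77 line and 14988, 14651 and 15377 in the GFP line. These sums overlapped. The 7 control genes summed to 7061, 7780.2 and 7261 in the NUR77 line and 8224, 8105 and 8175 in the GFP line, which did not overlap. With Insig1 left out, the sums were 6615, 7366 and 6923 in the NUR77 line and 7042, 7167 and 7138 in the GFP line. Those sums overlapped, but no other control gene was left out, so the separation is not shown to rest on Insig1 alone. Per kilobase of exon the enzymes spanned a wide range of levels, in GFP libraries between 14.1 normalized reads per kilobase for Tm7sf2 and 499 for Fdps. Exon lengths are the union of all annotated isoforms, so that levels of genes with long minor isoforms, such as Lss, are understated.

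**Figure D4:**
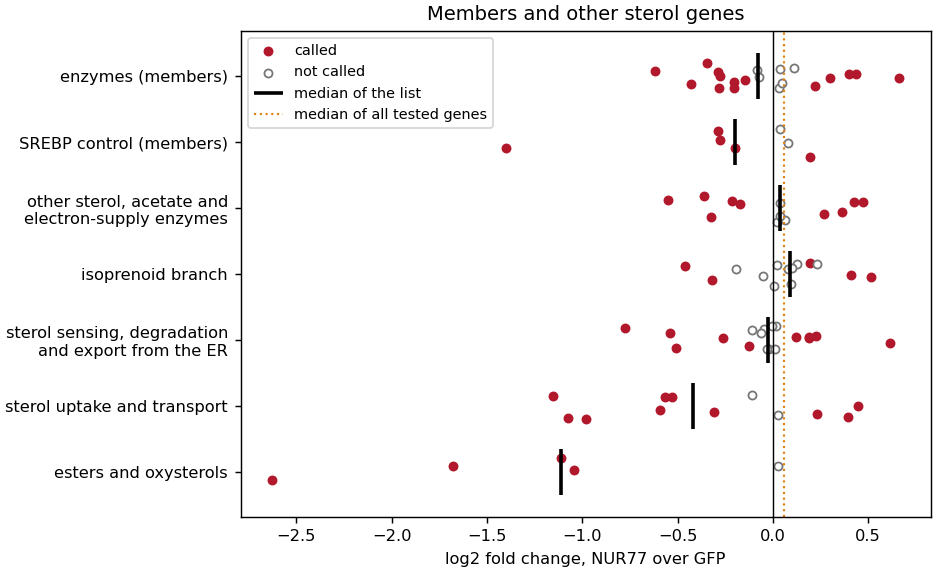
Log2 fold change, NUR77 over GFP, of tested genes in the 2 member groups and in 5 other lists of sterol-related genes; filled points passed the test, open points did not, black bars are list medians and the dotted line is the median of all tested genes. The medians are -1.11 for esters and oxysterols and -0.42 for sterol uptake and transport, and between -0.20 and 0.09 for the other groups.

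Genes around the pathway were read from 5 further lists, whose choice is described with the processing. Their counts stand beside 38.4% of all tested genes that rose and 28.3% that fell. The list of other enzymes held 4 rises and 5 falls among 13 tested genes (median 0.04). Some of them are steps of the route itself that are not members. Others supply acetyl units or electrons, or act beside the members. Acss2, an acetyl-CoA synthetase, rose to 471 ± 44.9 normalized reads in NUR77 libraries, against 339 ± 39.8 in GFP libraries (log2 fold change 0.47, adjusted p = 2.0e-04). Cyb5r3, a cytochrome b5 reductase that passes electrons to sterol-modifying enzymes, fell (-0.36, adjusted p = 1.4e-05).

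The isoprenoid branch, which leads from farnesyl and geranylgeranyl units to ubiquinone, dolichol and prenylated proteins, held 3 rises and 2 falls among 14 tested genes (median 0.09). The rises included both subunits of the Rab geranylgeranyl transferase, Rabggta (0.51, adjusted p = 6.6e-06) and Rabggtb (0.41, adjusted p = 3.5e-05). Srd5a3, which completes dolichol, fell (-0.46, adjusted p = 2.4e-04), as did Zmpste24, a protease that trims prenylated prelamin A (-0.32, adjusted p = 8.3e-05). Fntb, the beta subunit of farnesyl transferase, stood at 291 ± 33.3 normalized reads in NUR77 libraries and 289 ± 8.24 in GFP libraries (adjusted p = 0.97).

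Genes of sterol sensing, of protein degradation at the endoplasmic reticulum and of COPII export held 5 rises and 5 falls among 18 tested genes (median -0.03). Rnf145, a ubiquitin ligase of the endoplasmic reticulum reported to act on SCAP, rose to 638, 706 and 681 normalized reads in NUR77 libraries, against 488, 389 and 449.7 in GFP libraries (0.61, adjusted p = 2.4e-06). Sec23a, a subunit of the COPII coat that carries SCAP out of the endoplasmic reticulum, rose by 0.22 (adjusted p = 0.0041). Fbxw7, a ubiquitin ligase subunit that marks nuclear SREBP for degradation, fell to 317 ± 31.5 in NUR77 libraries, against 542 ± 21.1 in GFP libraries (-0.78, adjusted p = 9.6e-08). Erlin2, of a complex that binds cholesterol in the endoplasmic reticulum, also fell (-0.54, adjusted p = 6.6e-07). Sar1b, the GTPase that starts COPII assembly, was at 0.00 (adjusted p = 0.96).

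Uptake and transport of sterols held 7 falls and 3 rises among 12 tested genes, and the esterification and oxysterol list 4 falls and 0 rises among 5. With the same test, 2 and 4 of these genes changed by 2-fold or more. Among all tested genes 28.3% fell, 38.4% rose and 13.9% passed with a change of 2-fold or more. Lrp1, a large lipoprotein receptor, fell to 8065 ± 774 normalized reads in NUR77 libraries, against 17917 ± 464 in GFP libraries (-1.16, adjusted p = 2.6e-11). Lipa, the lysosomal acid lipase that frees cholesterol from taken-up esters, fell to 2837 ± 59.1 in NUR77 libraries, against 5978 ± 236 in GFP libraries (-1.07, adjusted p = 4.1e-12). Scarb1, the scavenger receptor SR-BI, rose by 0.45 (adjusted p = 6.3e-07) and Gramd1a, a sterol carrier at contacts of the endoplasmic reticulum with the plasma membrane, by 0.40 (adjusted p = 1.2e-05). Stard3, a late endosomal sterol-binding protein gene, was at 0.03 (adjusted p = 0.71).

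In the ester and oxysterol list, Nceh1, a hydrolase of cholesteryl esters, fell to 799 ± 19.2 normalized reads in NUR77 libraries, against 4941 ± 147 in GFP libraries (-2.63, adjusted p = 8.6e-17). Hsd3b7, which acts on oxysterols on the way to bile acids, fell as well (-1.68, adjusted p = 1.3e-08). Soat2, an acyl-CoA cholesterol acyltransferase, averaged 423 ± 109 normalized reads in NUR77 libraries and 406 ± 21.5 in GFP libraries, with overlapping values (0.03, adjusted p = 0.9). Ch25h, which makes 25-hydroxycholesterol, an oxysterol that binds INSIG proteins, had 0 reads in all 6 libraries, where 3 reads would have been 1.88 to 2.68 normalized reads in a library. The members and these lists were compared by their counts and medians, and the differences between lists were not tested.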

How the data were processed

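Poly(A) RNA of 6 dishes, 3 per line, was sequenced from strand-specific libraries, per the labels' protocols. The authors deposited log2 values, per the names of the deposited files normalized read counts on mm10; TopHat2 2.1, HTSeq and DESeq2 are named in the submitters' processing notes, without roles, and neither strand setting nor annotation release is stated there. Undoing the log2 (value + 1) gave library sums of 10000000 and whole reads for 100% of low values, within 0.1 read. Count models were not run, because the deposited columns hold log2 values; limma-voom was run on the recovered reads instead. Equal totals mean that a few abundant genes shift all others.

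Identifiers were named from GENCODE M21 (GRCm38), which matched 22872 of 23154. limma 3.58.1 in R 4.3.3 was fitted to log2(normalized reads + 1) of all genes with a mean of 10 or more, with trend and robust moderation and no covariate; genes were called at a Benjamini-Hochberg adjusted p under 0.05. Fold changes are NUR77 over GFP on that scale, which understates changes of low genes. The fit was tested on simulated data. The 16 alternatives are pseudocounts of 0.5 and 5, no filter, a filter at 50, 3 scalings, no trend, limma-voom, a replicate block and each library left out in turn. Limits for 0 reads are 3 reads and cover counting error only.

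Members and lists were chosen with earlier results of these data known. All members are given, library by library for control genes and for the enzymes with the 4 largest rises, 4 largest falls and 2 smallest changes; from other lists, the 2 largest rises, 2 largest falls and the smallest change are named. Some genes that this rule would name are not reported here, though they are counted in their lists. Faxdc2 and a hepatocyte marker list of 4 genes were not analysed here. No replicates agreed within sampling noise (chi-square per degree of freedom 2.47 or more). No protein sequences were compared.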

Additional observations from a re-analysis of the deposited data

How the results depend on the processing

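Over the 16 alternatives the members called higher numbered 4 to 6 and those called lower 10 to 15, against 6 and 13 as reported. All tested genes called numbered 7475 of 11201 as reported, 6680 of 9838 with the filter at 50 and 8429 of 18607 with no filter. The settings with a changed filter gave both ends of the range and tested other numbers of genes. No called member changed direction in any of the 16 alternatives. The calls of 4 of the 6 risen members (Pmvk, Idi1, Tm7sf2, Lbr) held in all 16. Of the 13 fallen members, 10 held in all 16 (Hmgcs1, Mvd, Sqle, Cyp51, Nsdhl, Ebp, Sc5d, Insig1, Mbtps1, Mbtps2). The share of calls that held over all tested genes is not given here. The cause of the 5 losses given in the report was not tested. With each library left out in turn, 5 to 6 members were called higher and 11 to 12 lower. Among the 11201 tested genes, 3942 to 4259 were called higher and 2809 to 3126 lower in these settings. The 3 scalings moved the median log2 fold change of all tested genes by -0.07 to -0.06. Libraries of equal number share only a number: their deviations from the group means correlated at 0.0016, 0.1138 and 0.0447 over genes. With the replicate block, 6 members were called higher and 13 lower, and 7585 genes in all. The calls of Lss, Ggps1, Insig2, Dhcr7 and Srebf2 were lost in 6, 4, 4, 3 and 2 of the 16 alternatives. These are the least secure calls among the members. Sqle changed by -0.20 with an SE of 0.057 and held, whereas Insig2 changed by -0.20 with an SE of 0.081. Count models were not run.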

Other observations

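Within a line, many members had their lowest or their highest value in the same library. NUR77 replicate 3 had the lowest value of its line in 14 of the 20 enzymes and 17 of the 27 members, and NUR77 replicate 2 the highest in 11 and 16. In the GFP line, replicate 2 had the lowest value in 11 of the 20 enzymes and replicate 3 the highest in 10. Levels of genes within a library share its depth and scaling, and no test was made. The share over all tested genes is not given here, so this order is not shown to be particular to the members.

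The members lie on 14 chromosomes. The median log2 fold change of up to 12 tested genes on each side of a member was between -0.17 and 0.23, and for 22 of the 27 members it was smaller in size than that of the member. Around Insig1 it was -0.01, and around Sc5d -0.17. Of the 19 called members, 11 had the same sign as the median of their neighbours. A median over many genes varies less than single genes do, and the median absolute log2 fold change of all tested genes was 0.31. No share over all tested genes is given for either count, so neither is shown to be particular to the members.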
